A study of Mus musculus with 6 samples.

Results

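The 4 genes Cdhr1, Eomes, Tbx21 and Frmd7 were taken by symbol from the 37620 genes listed in the deposited table, and all 4 were found. They are used here as genes of the mitral and tufted cells of the olfactory bulb. They were selected on their measured normalized counts, which earlier results of the same data showed higher in ketamine mice than in saline mice, so their difference between the groups is described below without a test. RNA Seq was performed on the pre-limbic cortex (PLc), which lies medially within the prefrontal cortex, of C57Bl/6 mice aged 9 weeks. Saline mice 1, 6 and 10 received vehicle, and ketamine mice 3, 5 and 9 received the NMDA receptor antagonist ketamine at 30 mg/kg, once a day by intraperitoneal injection for 5 days. Tissue was dissected 2 days after the last injection, and each mouse number had 1 library (n = 3 mice in each group). All the mice were wild-type males, and no genetic change separated the groups.

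Mitral and tufted cells are the glutamatergic output neurons of the olfactory bulb. They receive the axons of olfactory sensory neurons in the glomeruli and project to the anterior olfactory nucleus, the piriform cortex and other olfactory areas. Eomes (also called Tbr2) and Tbx21 (also called T-bet) encode transcription factors of the T-box family. Both are used to mark these cells, but both are better known from cytotoxic lymphocytes, and Eomes also marks the intermediate progenitors of glutamatergic neurons. Cdhr1 encodes a cadherin-related membrane protein found in mitral and tufted cells and in the outer segments of photoreceptors. Frmd7 encodes a FERM domain protein that links the membrane to the actin cytoskeleton, and its human counterpart is mutated in congenital nystagmus.

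The genes lie on different chromosomes. In the mm9 genome with the GENCODE M1 annotation, Cdhr1 (ENSMUSG00000021803) lies on the minus strand at chr14:37891036-37911497 and Eomes (ENSMUSG00000032446) on the plus strand at chr9:118387330-118395250. Tbx21 (ENSMUSG00000001444) lies on the minus strand at chr11:96959385-96976645 and Frmd7 (ENSMUSG00000036131) on the minus strand at chrX:48247303-48295887. None shares exon bases with another annotated gene. Their promoters are shown because the 4 genes differed between the groups in the same direction and because 2 of them encode T-box factors. The sequences are the 250 bases before the RefSeq start site (table build GRCm38.p6), 5′ to 3′ on the gene's strand. Each was placed on mm9 by 1 exact match of a 300-base sequence that holds it, searched only on the gene's own chromosome and strand. The 250-base windows shown lie at chr14:37911534-37911783 for Cdhr1, chrX:48295947-48296196 for Frmd7, chr9:118387057-118387306 for Eomes and chr11:96976646-96976895 for Tbx21. Capitals mark GGTGTG or its reverse complement CACACC, the core of the T-box half-site.
Cdhr1: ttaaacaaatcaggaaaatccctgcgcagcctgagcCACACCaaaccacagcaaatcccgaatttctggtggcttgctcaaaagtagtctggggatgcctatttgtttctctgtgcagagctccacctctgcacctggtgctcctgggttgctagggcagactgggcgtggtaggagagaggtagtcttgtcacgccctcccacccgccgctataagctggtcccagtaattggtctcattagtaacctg
Frmd7: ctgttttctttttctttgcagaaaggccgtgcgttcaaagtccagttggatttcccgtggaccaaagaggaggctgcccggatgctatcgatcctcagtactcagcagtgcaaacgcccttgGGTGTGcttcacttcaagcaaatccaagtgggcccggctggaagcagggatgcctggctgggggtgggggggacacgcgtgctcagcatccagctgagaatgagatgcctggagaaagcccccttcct
Eomes: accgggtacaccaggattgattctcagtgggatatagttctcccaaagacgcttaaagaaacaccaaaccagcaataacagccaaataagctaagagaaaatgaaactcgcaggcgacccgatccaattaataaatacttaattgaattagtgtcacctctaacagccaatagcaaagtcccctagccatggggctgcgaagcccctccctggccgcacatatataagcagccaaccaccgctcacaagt
Tbx21: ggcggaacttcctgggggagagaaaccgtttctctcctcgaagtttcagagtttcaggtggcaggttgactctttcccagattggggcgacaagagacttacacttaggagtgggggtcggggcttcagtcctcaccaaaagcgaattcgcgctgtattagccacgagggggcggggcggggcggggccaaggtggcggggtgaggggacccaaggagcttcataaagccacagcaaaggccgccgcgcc
The full half-site AGGTGTGA was searched on both strands and was in none of the 4 windows, against 1.12% of 32851 RefSeq promoter windows of the same length. Its core GGTGTG, which also lies within the full half-site, was found 1 time in Cdhr1 and 1 time in Frmd7, and in 16.3% of all windows. Neither T-box gene held the core in this window. The GC content of the windows was 53.2% for Cdhr1, 56.8% for Frmd7, 46.4% for Eomes and 60.8% for Tbx21, with 6, 9, 8 and 16 CpG dinucleotides. The start sites given by RefSeq and by GENCODE lay between 0 and 59 bases apart.

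The deposited values, called normalized counts here, are the reads of a gene scaled by the size factor of its library. The reads before scaling were recovered as whole numbers and came to between 26273436 and 32643726 per saline library and between 28956009 and 31242763 per ketamine library, so that depth overlapped between the groups. For all genes, log2(normalized count + 1) was compared between the groups with limma for 16127 genes whose mean over all 6 mice reached 10 normalized counts. The p-values were two-sided with Benjamini-Hochberg adjustment, and a call needed an adjusted p under 0.05. There were 0 calls by limma (0.0%), edgeR called 0 (0.0%) and DESeq2 on the recovered reads called 182, or 1.13% of the genes it gave an adjusted p. An unadjusted p under 0.05 by limma was found for 937 genes (5.81%). The labels give no litter, cage or sequencing batch.

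Cdhr1 had 103, 120 and 90.1 normalized counts across saline mice 1, 6 and 10, while ketamine mice 3, 5 and 9 had 899.6, 817 and 4006. It was the most evenly expressed of the 4 genes in saline mice, while ketamine mouse 9 had several times more than the other ketamine mice. Its saline mean was 104 ± 14.8 and the ketamine mean 1908 ± 1818 (SD, n = 3 each), a difference in mean log2 value of 3.78. Without ketamine mouse 9 the difference was 3.035.
Eomes had 5.75, 14.5 and 7.69 normalized counts across saline mice 1, 6 and 10, while ketamine mice 3, 5 and 9 had 156, 77.1 and 1129. Its saline values rest on 6, 15 and 7 reads. The saline mean was 9.31 ± 4.58 and the ketamine mean 454 ± 586 (SD, n = 3 each), so the spread among ketamine mice was larger than their mean. The difference was 4.63 on the log2 scale, and 3.51 without ketamine mouse 9.

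Tbx21 had very few reads in saline mice 1, 6 and 10, namely 2, 4 and 3, or 1.92, 3.86 and 3.29 normalized counts. Ketamine mice 3, 5 and 9 had 47.0, 26.3 and 362 normalized counts. The ratio of the group means was 48.0, with a 95% exact counting interval from 25.1 to 105.5 that covers the sampling of reads only and not the spread between mice. On the log2 scale the difference was 4.31, and 3.20 without ketamine mouse 9.
Frmd7 had 13.4, 19.3 and 37.3 normalized counts across saline mice 1, 6 and 10, while ketamine mice 3, 5 and 9 had 219, 365 and 1289. Its order among the mice differed from that of the other genes. Ketamine mouse 5 was above ketamine mouse 3, and saline mouse 10 was the highest saline mouse. The saline mean was 23.35 ± 12.5 and the ketamine mean 624 ± 580.1 (SD, n = 3 each), a difference of 4.39 on the log2 scale, and 3.665 without ketamine mouse 9.

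For each of the 4 genes every ketamine mouse was above every saline mouse, as for 5.69% of the 16127 genes, a pattern that the choice of genes had fixed. The lowest ketamine mouse had 6.82 times the highest saline mouse for both Cdhr1 and Tbx21, 5.33 times for Eomes and 5.87 times for Frmd7. Ranked by log2 difference over all tested genes, Eomes stood at position 3, Frmd7 at 6, Tbx21 at 7 and Cdhr1 at 23. A log2 difference of at least 3 was reached by 48 genes (0.298%). In these bulk samples, fewer or more cells of a type and less or more RNA per cell cannot be told apart.

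**Figure D1:**
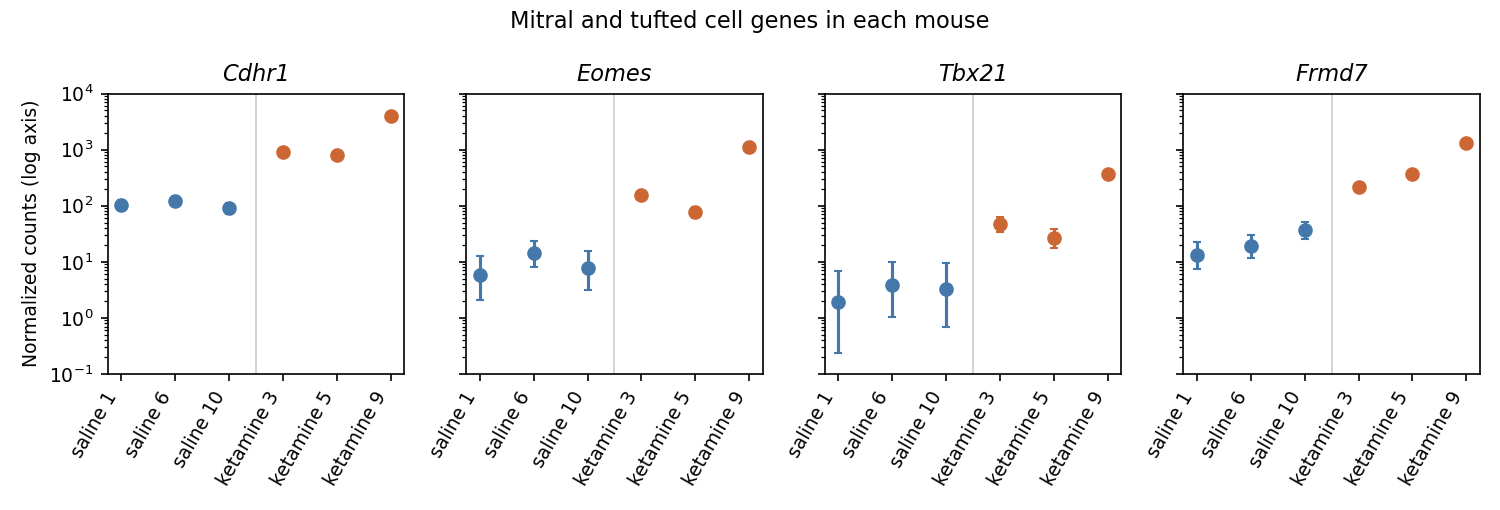
Normalized counts (log axis) of Cdhr1, Eomes, Tbx21 and Frmd7 in each of the 6 mice, saline in blue and ketamine in orange; bars are 95% exact Poisson intervals of the reads, and are hidden by the points where short. Each ketamine mouse lies above each saline mouse, and ketamine mouse 9 is highest for every gene.

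The ketamine mice differed among themselves more than the saline mice did. Ketamine mouse 9 had 4.45 times as many normalized counts of Cdhr1 as mouse 3 and 4.91 times as many as mouse 5. For Eomes these ratios were 7.25 and 14.6, and for Tbx21 they were 7.70 and 13.7. For Frmd7 they were 5.88 and 3.53. The SD of log2 values in ketamine mice was 1.29 for Cdhr1, 1.999 for Eomes, 1.96 for Tbx21 and 1.31 for Frmd7, against 0.20, 0.61, 0.38 and 0.72 in saline mice. Ketamine mice 3 and 5 were close for Cdhr1, with 95% counting intervals of 842 to 959.7 in mouse 3 and 763 to 873 in mouse 5, which overlapped. For Eomes mouse 3 had 2.02 times the normalized counts of mouse 5, and for Frmd7 it had 0.601 times.

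Per kilobase of annotated exon, the 4 genes kept the same order in each of the 6 mice, namely Cdhr1, then Frmd7, Eomes and Tbx21. In saline mice the means were 24.3 ± 3.45 normalized counts per kilobase for Cdhr1, 7.31 ± 3.90 for Frmd7, 2.24 ± 1.103 for Eomes and 1.22 ± 0.401 for Tbx21 (SD, n = 3 each). The saline values of neighbours in this order overlapped between mice for Eomes and Tbx21 only. In ketamine mice the means were 443 ± 423, 195 ± 182, 109 ± 141 and 58.3 ± 75.5, and here every gene overlapped its neighbours between mice. Among the genes with a read, Cdhr1 stood at percentile 33.2 to 37.4 in saline mice, at 65.0 and 66.9 for ketamine mice 5 and 3, and at 91.3 for ketamine mouse 9, by level per kilobase. Tbx21 moved from between percentile 4.58 and 9.00 in saline mice to 61.4 in ketamine mouse 9.

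The ratio of the T-box genes was the steadiest between mice. Per kilobase, Eomes had 1.98, 1.75 and 1.87 times the level of Tbx21 in ketamine mice 3, 5 and 9, and between 1.40 and 2.25 times in saline mice, where few reads leave wide counting intervals. Cdhr1 and Eomes did not keep a constant ratio. Cdhr1 had 5.58, 10.2 and 3.43 times the level of Eomes in ketamine mice 3, 5 and 9, and the 95% counting intervals of these ratios (4.71 to 6.65, 8.14 to 13.0 and 3.22 to 3.65) did not overlap. In saline mice this ratio lay between 7.98 and 17.4. The ratio of Cdhr1 to Frmd7 was 3.05, 1.66 and 2.31 for ketamine mice 3, 5 and 9, against 5.73, 4.61 and 1.79 for saline mice 1, 6 and 10.

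**Figure D2:**
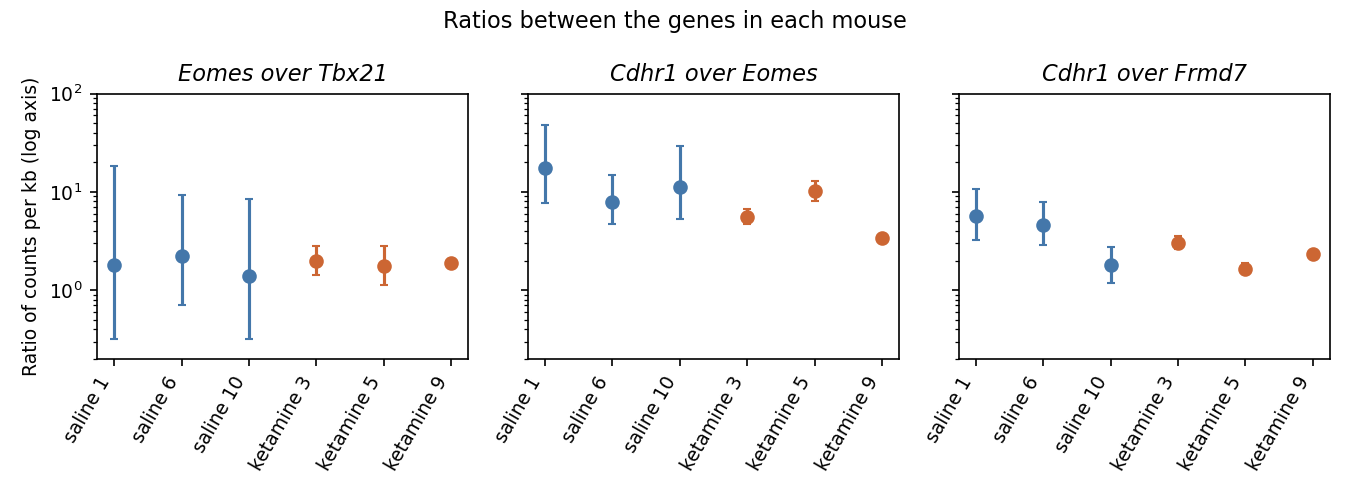
Ratios of normalized counts per kilobase (log axis) between pairs of the genes in each mouse, saline in blue and ketamine in orange, with 95% exact counting intervals as bars. Eomes over Tbx21 stays between 1.40 and 2.25 over the 6 mice, while Cdhr1 over Eomes runs from 3.43 to 17.4.

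Another 15 genes used for mitral and tufted cells were in the table, and all 15 were tested. This list and those below were chosen with earlier results of these data known, so their counts are a description only. limma and edgeR called 0 of the 15, and 5 had an unadjusted p under 0.05 by limma (5.81% of all genes). DESeq2 called 2 of them higher (Shisa3 and Lbhd2) and 0 lower, against 0.901% of all genes called higher and 0.23% called lower. The median difference of other mitral and tufted cell genes was 1.49 on the log2 scale, with 13 genes higher and 2 lower, against a median of -0.014 over all genes tested, of which 47.0% were higher. It was 0.668 without ketamine mouse 9 and 0.679 without saline mouse 6. By edgeR this median was 0.857 and by DESeq2 0.846, and it was 0.823 with 5 added to the counts in place of 1. Lhx1 counted as higher, at 1.54, although its group means were 13.9 in saline and 14.2 in ketamine mice. In 4 of the 15 every ketamine mouse was above every saline mouse, as in 5.69% of all genes, namely Shisa3, Doc2g, Lbhd2 and Ntng1. Without saline mouse 10 this number was 10, where the share of all genes was 15.1%, and without ketamine mouse 9 it was 7, where the share was 14.0%.
Shisa3 encodes a membrane protein of the Shisa family. It had 9.58, 15.4 and 14.3 normalized counts across saline mice 1, 6 and 10, while ketamine mice 3, 5 and 9 had 97.9, 69.6 and 679.8. This is the order of Eomes and Tbx21 among the ketamine mice. Its log2 difference was 3.60 (standard error, SE, 0.801, limma adjusted p = 0.38, DESeq2 adjusted p = 6.83e-06). Shisa3 shares 138 exon bases with Atp8a1 on the other strand.
Doc2g, whose product belongs to the double C2 domain family, had 50.8, 82.0 and 78.0 normalized counts in saline mice and 283, 206 and 2624 in ketamine mice 3, 5 and 9. Ketamine mouse 9 had 9.28 times the next highest mouse. The log2 difference was 2.94 (SE 0.885, limma adjusted p = 0.636), and DESeq2 gave no adjusted p. Doc2g shares 1918 exon bases with Nudt8 on the same strand, so its reads are uncertain.
Lbhd2, listed as A230065H16Rik, had 5.75, 7.72 and 19.8 normalized counts across saline mice 1, 6 and 10, while ketamine mice 3, 5 and 9 had 74.4, 28.2 and 204. Its log2 difference was 2.84 (SE 0.75, limma adjusted p = 0.512, DESeq2 adjusted p = 0.00459). Ntng1, which encodes netrin G1, differed less, with 333 to 494 normalized counts in saline mice and 564 to 902 in ketamine mice, a log2 difference of 0.83 (adjusted p = 0.551 by limma).

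Several genes of the mitral and tufted cell list were also high in 1 saline mouse. Barhl2, a homeobox gene, had 0.96 and 0 normalized counts in saline mice 1 and 6 but 20.9 in saline mouse 10, and 22.5, 5.64 and 47.1 in ketamine mice 3, 5 and 9. The neuropeptide gene Nts had 3.83, 1.93 and 105 in saline mice 1, 6 and 10, and was highest in ketamine mouse 3, at 689. Its log2 difference was 4.06 (SE 1.44, limma adjusted p = 0.764). The LIM homeobox genes Lhx1 and Lhx5 had at most 0.97 normalized counts in saline mice 1 and 6, but 41.7 and 30.7 in saline mouse 10. Cdhr1, by contrast, was lowest in saline mouse 10.
Nmb, which encodes neuromedin B, had 563 normalized counts in ketamine mouse 9 and between 35.4 and 79.3 in the other 5 mice. It shares 163 exon bases with Sec11a on the same strand. Spp1, which encodes osteopontin, had 790 in ketamine mouse 9 but 447 in saline mouse 10 (log2 difference 0.21, adjusted p = 0.999 by limma). Other genes of the list are also expressed in cortex. Tbr1, the T-box gene of cortical glutamatergic neurons, had a log2 difference of -0.47, and the neuropeptide gene Cck had -0.66. Reln, which encodes the secreted glycoprotein reelin, had 0.26 and the vesicular glutamate transporter gene Slc17a6 had 0.58 (adjusted p = 0.999 by limma for each of these 4 genes).

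**Figure D3:**
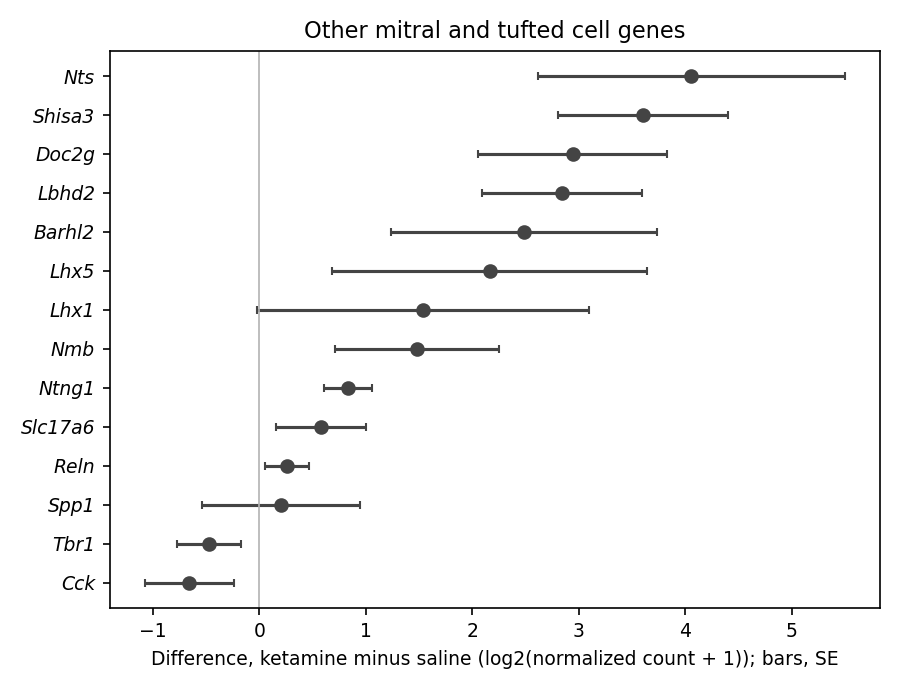
Log2 difference between ketamine and saline mice of 14 of the 15 other mitral and tufted cell genes, with the standard error by limma as bars (n = 3 mice in each group). Nts lies highest, at 4.06, and Shisa3, Doc2g and Lbhd2 lie between 2.84 and 3.60. Barhl2, Lhx5, Lhx1, Nmb, Ntng1 and Slc17a6 lie between 0.58 and 2.49, and Spp1 is at 0.21. Reln, Tbr1 and Cck, which cortex expresses, lie between -0.66 and 0.26.

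Genes of other olfactory bulb cells, in lists also chosen with earlier results of these data known, were measured in the same libraries. Of 12 genes of bulb interneurons (granule and periglomerular cells), 11 were higher and 1 lower, with a median log2 difference of 2.01. limma called 0, 10 had an unadjusted p under 0.05 (5.81% of all genes), and DESeq2 called 6 higher (0.901% of all genes) and 0 lower. In 9 of the 12 every ketamine mouse was above every saline mouse, as in 5.69% of all genes, and 10 were highest in ketamine mouse 9, as were 29.4% of all genes. Scgn, which encodes the calcium-binding protein secretagogin, had 2.87, 4.83 and 16.5 normalized counts across saline mice 1, 6 and 10, while ketamine mice 3, 5 and 9 had 75.4, 84.7 and 713. Its log2 difference was 4.51 (SE 0.948, adjusted p = 0.356 by limma), and DESeq2 gave it no adjusted p. The zinc finger gene Sp8 had 51.7 to 84.6 in saline mice and 237, 336 and 1423 in ketamine mice (adjusted p = 0.374 by limma, 2.11e-05 by DESeq2). Both thus had the order of Frmd7 among the ketamine mice, although mice 3 and 5 were close for Scgn.
Th, which encodes the tyrosine hydroxylase of dopaminergic neurons, overlapped between the groups, with 611 in saline mouse 10 and 196 in ketamine mouse 5. Prokr2, the prokineticin receptor gene, had the smallest limma p of the list. The saline range was 27.8 to 38.4 normalized counts, against 191, 169 and 257 for ketamine mice 3, 5 and 9, a log2 difference of 2.65 (SE 0.249, limma adjusted p = 0.0922, DESeq2 adjusted p = 2.15e-13). The trophoblast glycoprotein gene Tpbg and the zinc finger gene Sp9 followed, with log2 differences of 1.21 and 2.17 (adjusted p = 0.211 and 0.283 by limma). Etv1, an ETS factor gene, went the other way, with every ketamine mouse below every saline mouse, as in 4.66% of all genes, and a log2 difference of -0.40 (adjusted p = 0.851 by limma).

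Of 10 genes of olfactory sensory neurons, whose axons end in the bulb, 7 were higher and 3 lower, with a median log2 difference of 1.22. limma called 0, and DESeq2 called 1 (Omp) higher, against 0.901% of all genes. Of the 10 genes, 5 had an unadjusted p under 0.05 by limma (5.81% of all genes). In 3 of them every ketamine mouse was above every saline mouse, as in 5.69% of all genes. Omp, which encodes olfactory marker protein, had 24.9, 17.4 and 9.88 normalized counts across saline mice 1, 6 and 10, while ketamine mice 3, 5 and 9 had 25.4, 326 and 673. Ketamine mouse 3 was therefore close to saline mouse 1 for Omp, whereas it was well above every saline mouse for Cdhr1, Eomes, Tbx21 and Frmd7. S100a5, which encodes a calcium-binding protein, had 7.83, 52.7 and 598 in ketamine mice 3, 5 and 9 and at most 5.79 in saline mice. Stoml3, a stomatin-like gene, had 10.8, 92.2 and 111 in ketamine mice 3, 5 and 9. The cyclic nucleotide-gated channel gene Cnga2 was highest in ketamine mouse 5, at 39.5, and the G-protein gene Gng13 had a log2 difference of -0.30 (adjusted p = 0.848 and 0.999 by limma).
Of 6 genes of olfactory ensheathing glia, 4 were higher and 2 lower, with a median of 0.91, and limma and DESeq2 called 0. Prss56, listed as 1700027L20Rik, had 66.2 normalized counts in ketamine mouse 9 and at most 7.83 elsewhere. Fabp7, a fatty acid-binding protein gene also used for astrocytes, had 3344 in ketamine mouse 9 and between 477 and 833 elsewhere. Ngfr, the gene of a neurotrophin receptor, was highest in ketamine mouse 3, at 479, and Frzb and Sostdc1 had log2 differences of -0.10 and 0.48 (adjusted p = 0.999 by limma for both).
Of 12 progenitor and neuroblast genes, 10 were higher and 2 lower, with a median of 0.88. limma called 0 and DESeq2 called 4 higher, against 0.901% of all genes. Doublecortin (Dcx), a marker of migrating neuroblasts, had 1074 to 1238 normalized counts in saline mice and 1703, 2173 and 2425 in ketamine mice (log2 difference 0.82, adjusted p = 0.328 by limma, 0.002 by DESeq2). The homeobox genes Dlx1 and Dlx2, used in GABAergic lineages, had log2 differences of 1.68 and 1.84 (adjusted p = 0.4 and 0.344 by limma). Neurog2, which acts just before Eomes in the glutamatergic lineage, had a log2 difference of -0.64 (adjusted p = 0.969 by limma). Of the 12 genes, 6 were highest in ketamine mouse 9, as were 29.4% of all genes. The proliferation gene Mki67 was not among these 6, with 87.1 and 87.5 normalized counts for ketamine mice 3 and 5 but 23.6 for mouse 9.

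**Figure D4:**
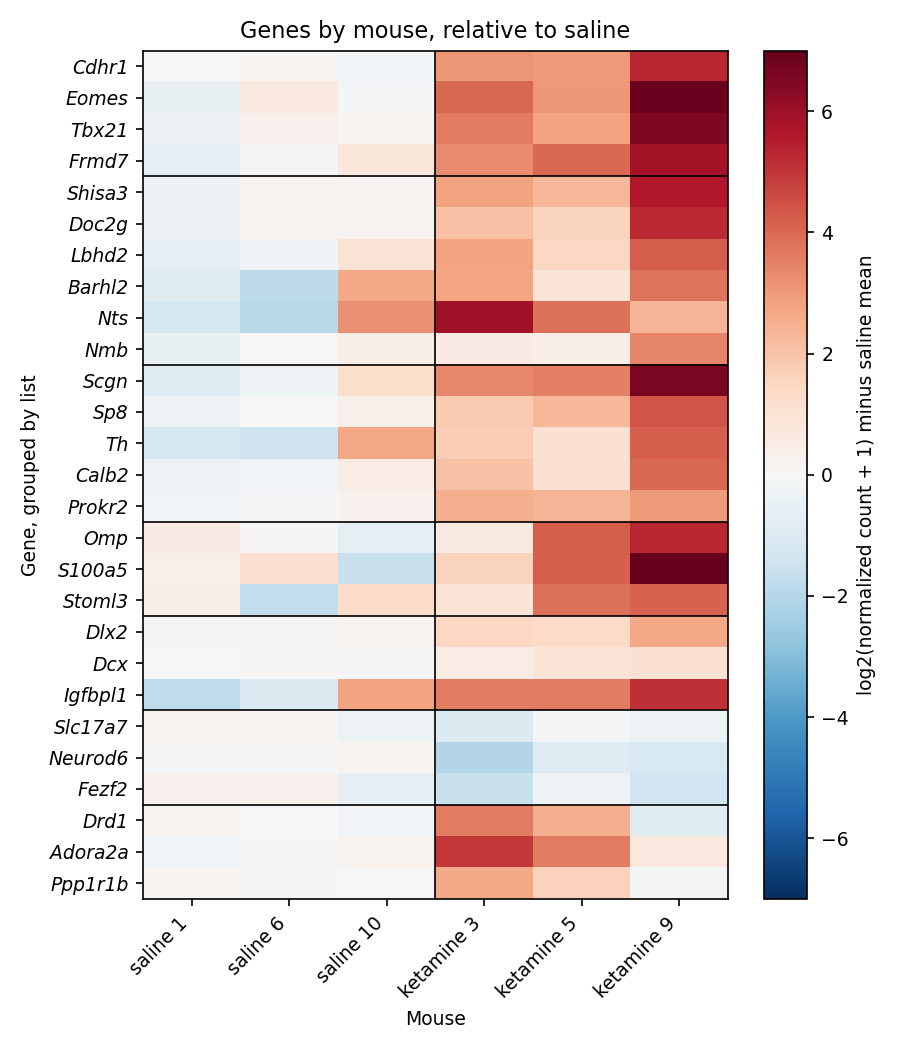
Log2(normalized count + 1) of named genes in each mouse, minus the mean of the saline mice, as colour; horizontal lines separate the lists, and the vertical line separates saline from ketamine mice. From top to bottom the lists are the 4 genes, other mitral and tufted, bulb interneuron, sensory neuron, progenitor and neuroblast, cortical excitatory and striatal genes, and mouse 9 is highest for the top 4 genes but lowest of the ketamine mice for the 3 striatal genes.

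Cell types outside the bulb that express the same genes were also examined. Of 15 lymphocyte genes, only Lck reached a mean of 10 normalized counts, with 20.1 to 41.5 in saline mice and 46.1 to 53.8 in ketamine mice (log2 difference 0.86, adjusted p = 0.797 by limma). The summed level of the list was 36.4 to 48.3 in saline mice and 54.6 to 79.8 in ketamine mice. The T cell gene Cd3e had at most 5.49 and the natural killer cell genes Ncr1 and Nkg7 at most 1.96 in any mouse, while Ifng, the interferon gamma gene controlled by Tbx21 in lymphocytes, had 0 reads in all 6 libraries, which allows up to 3 reads in each. In ketamine mouse 9, Eomes and Tbx21 had 1245 and 399 reads.
Of 8 photoreceptor genes, only Sag was tested, at a log2 difference of -0.43 (adjusted p = 0.999 by limma). The photoreceptor genes Crx and Prph2 had 0 reads in all libraries, and Rcvrn had at most 16.9 normalized counts in any mouse, whereas Cdhr1 had 4006 in ketamine mouse 9. Of 6 genes of Cajal-Retzius cells, the reelin neurons of the cortical surface, all 6 were higher, with a median of 1.01. Lhx1, Lhx5 and Reln of this list were also counted among the other mitral and tufted cell genes, so the lists are not independent. limma called 0 of the 6 and DESeq2 called 1 higher, against 0.901% of all genes. This was Ndnf (listed as A930038C07Rik), whose log2 difference was 1.17 (adjusted p = 0.173 by limma, 1.08e-06 by DESeq2). Trp73, a defining gene of these cells, had 71.4 normalized counts in saline mouse 10 and at most 56.8 in a ketamine mouse, and Ebf3 had 84.6 and at most 70.7.

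Other members of the gene families were also counted. Of 15 other T-box genes 9 were tested, with 4 higher and 5 lower and a median log2 difference of -0.04, and limma and DESeq2 called 0. Tbr1, also counted among the other mitral and tufted cell genes, was 1 of the 9. Tbx1 had 0.43 and Tbx22 had -1.46 (adjusted p = 0.999 and 0.851 by limma), and T, the brachyury gene, had at most 2.82 normalized counts in any mouse. In 0 of the 9 was every ketamine mouse above every saline mouse, a count near the 5.69% of all genes. Of 6 cadherin-related genes 5 were tested, with 4 higher and 1 lower and a median of 0.43. Cdhr3, Cdhr2 and Cdh23 had differences of 0.97, 0.43 and 0.79, and Cdhr4 had 0.06, with the opposite sign by edgeR and DESeq2 (adjusted p between 0.868 and 0.999 by limma). Of 8 other FERM domain genes 4 were higher and 4 lower, with a median of -0.0048. Frmd3 had 0.42, Frmd4a 0.11, Frmd4b -0.05, Frmd5 -0.27 and Frmd6 -0.27, and the sign of Frmd4a, Frmd4b and Frmd5 changed with a mouse left out (adjusted p between 0.953 and 0.999 by limma). limma and DESeq2 called 0 genes of both families.

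The labelled tissue was checked with markers of cortex and of the neighbouring striatum. Cortical markers were present in all mice. Slc17a7, the vesicular glutamate transporter gene of cortical excitatory neurons, had 49417, 48207 and 32973 normalized counts across saline mice 1, 6 and 10, while ketamine mice 3, 5 and 9 had 22152, 40369 and 32985. Of 10 cortical excitatory neuron genes 2 were higher and 8 lower, with a median log2 difference of -0.49, and their summed level was 50010 to 74710 in saline mice and 38290 to 60540 in ketamine mice. limma called 0 and DESeq2 called 1 lower, against 0.23% of all genes. This was Neurod6, a transcription factor gene with a log2 difference of -1.35 (adjusted p = 0.368 by limma, 0.00459 by DESeq2). The transcription factor genes Fezf2 and Bcl11b had -1.11 and 0.78 (adjusted p = 0.696 and 0.569 by limma).
Of 16 striatal genes 15 were tested and all 15 were higher, with a median of 2.17. limma called 0 and DESeq2 called 5 higher, against 0.901% of all genes. All 15 were highest in ketamine mouse 3, as were 15.1% of all genes. The dopamine receptor gene Drd1 (listed as Drd1a) was at 2631, 1237 and 116 normalized counts for ketamine mice 3, 5 and 9, against 184 to 237 in saline mice. Adora2a, the adenosine receptor gene of striatopallidal neurons, had 2395, 965 and 127, and Ppp1r1b, which encodes DARPP-32, had 12441, 5942 and 1851. Tac1, Penk and the neuronal membrane protein gene Syndig1l (listed as Tmem90a) had the smallest limma p, with log2 differences of 2.17, 2.38 and 3.12 (adjusted p between 0.283 and 0.416). The mouse with the most Cdhr1, Eomes, Tbx21 and Frmd7, ketamine mouse 9, was thus the ketamine mouse with the lowest summed striatal level. Its sum was 8875, against 62590 and 31150 in mice 3 and 5 and 7646 to 8747 in saline mice. The margin of mouse 9 over the saline mice was smaller than its excess of Penk alone. In that mouse Tac1, Penk and Syndig1l had 644, 3377 and 343 normalized counts, above the highest saline values of 377, 1359 and 194, whereas Drd1 was below the saline range and Ppp1r1b within it. The part of bulb or striatal tissue in the difference of the 4 genes was not tested.

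The genes whose pattern over the mice was most like that of the 4 genes were sought among the 1319 tested genes whose log2 values spanned at least 2. Likeness was Pearson's r over the 6 mice between a gene's log2 values and the mean of the standardised log2 values of the 4 genes. It is a description over few points that share libraries and groups. The 10 most alike had r between 0.985 and 0.994 and included 1 other mitral and tufted cell gene (Shisa3), the bulb interneuron genes Tshz1 and Sp8, and the progenitor and neuroblast genes Dlx1 and Dlx2. The first was Chrnb4, which encodes a nicotinic acetylcholine receptor subunit, with 0.96, 0.97 and 1.1 normalized counts across saline mice 1, 6 and 10, while ketamine mice 3, 5 and 9 had 25.4, 18.8 and 106. The others were the chemokine gene Cxcl5, the vasoactive intestinal peptide receptor gene Vipr2, the homeobox gene Dlx5 and Hephl1. Vipr2 had 16.3 to 28.6 normalized counts in saline mice and 85.2, 114 and 359 in ketamine mice 3, 5 and 9. Doc2g stood at position 25 (r = 0.966) and Lbhd2 at 39 (r = 0.945), while Nts stood at 287 (r = 0.566).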

How the data were processed

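RNA Seq was performed on PLc RNA of 6 mice (NEB Next Ultra II library kit, paired-end reads). Per the labels and the study's methods, reads were aligned with TopHat2 2.0.11 to mm9 and counted with HTSeq, with CASAVA also named. The annotation, strand setting and filters are not given in the sources used here. The deposited signal values are gene counts that the authors divided by DESeq2 size factors and rounded to 2 decimals. Reads were recovered from the steps of these values, and 100.0% of values of at most 1000 reads came out whole within 0.02 reads. This count scale served edgeR 4.0.16, which called 0 genes, and DESeq2 1.42.0, which called 182.

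The main test was limma 3.58.1 (trended variance) on log2(normalized count + 1) of the 3 saline and 3 ketamine mice without covariates. It took genes with a mean of at least 10. The added 1 shrinks the fold changes of low genes, but a difference of mean log2 values can also exceed that of a count model. For Lhx1 the log2 difference was 1.54 by limma and 0.027 by DESeq2. The fits were tested on simulated data. With 1 library for each mouse, p-values measure the spread between these samples. Intervals of single counts are 95% exact Poisson intervals. Those of ratios are 95% exact binomial intervals of the reads turned into ratios. Both cover counting error only. Of the listed IDs, 37205 were in GENCODE M1, which gave exon lengths. The named genes were the 4 genes, the first 3 genes of each list, the 3 of each list with the smallest limma p, all tested genes of the mitral and tufted cell list, and the 10 most alike in pattern. The values of 3 listed genes are not reported here, although the list counts include them. A few others were named after their values were seen. The 4 genes and the lists were chosen with earlier results of these data known. Alternatives were other pseudocounts, filters, scalings and tools, and leaving out each mouse.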

Additional observations from a re-analysis of the deposited data

How the results depend on the processing

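No paired analysis was possible because the groups share no mouse numbers. For Cdhr1, Eomes, Tbx21 and Frmd7, the log2 differences under the alternatives lay within 3.035 to 4.212, 3.514 to 5.614, 3.203 to 5.593 and 3.665 to 4.94. Tbx21 was not tested with a minimum mean of 100. Of these values, 59 of 59 moved by less than 1 SD, here the SD of log2 values pooled over the saline and ketamine groups. With n = 3 mice in each group, leaving 1 mouse out cannot move a difference by 1 such SD. The values with a mouse left out are therefore no check of stability. Genes called, ketamine against saline, came to 182 by DESeq2 (145 higher, 37 lower) against 0 by limma, and to between 0 and 1 with a mouse left out (Trh without ketamine mouse 5, and without ketamine mouse 9 Cdhr1, which had been chosen on this difference). Other mitral and tufted cell genes called were 2 by DESeq2. The median difference of other mitral and tufted cell genes was 0.581 with a minimum mean of 100 normalized counts, which keeps 11 of them, and 0.668 to 2.0 with a mouse left out. It was 0.857 by edgeR, 0.846 by DESeq2 and 0.823 with a pseudocount of 5, against 1.49 by limma. Other mitral and tufted cell genes with every ketamine mouse above every saline mouse numbered 4 to 10 with a mouse left out, a count chosen after seeing the data.

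Small differences changed sign. The log2 difference of Cdhr4 was -0.1224 by edgeR and -0.1447 by DESeq2, and -0.7552 to 0.5816 with a mouse left out. With a mouse left out, the log2 difference of Frzb ran from -0.5467 to 0.2449, that of Spp1 from -0.5863 to 0.8614, that of Frmd4b from -0.3114 to 0.3569, that of Frmd4a from -0.0265 to 0.3392 and that of Frmd5 from -0.4283 to 0.0291. The cause was not tested. Over 61 named and tested genes and 15 settings, 857 values kept direction and side of the threshold, 16 passed it (all by DESeq2) and 15 changed sign. Saline values of Eomes and Tbx21 rest on few reads, so their folds are imprecise at this depth.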

Other observations

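Saline mouse 10 had more of several genes than saline mice 1 and 6. Th had 611 normalized counts there against 39.3 and 32.8, Nts 105 against 3.83 and 1.93, and Lhx1 41.7 against 0 and 0. Trp73 had 71.4 against 14.4 and 12.5, and Cdh23 had 122 against 18.2 and 23.2. Among the 4 genes described above, only Frmd7 was highest in that mouse among the saline mice, at 37.3 against 13.4 and 19.3, while Cdhr1 was lowest there.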
